A study of Mus musculus with 12 samples.

Results

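TEC loci, the Ensembl biotype for transcribed stretches that still await experimental proof, were followed through total RNA sequencing of mouse liver under 3 feeding states. They were taken as the rows with the biotype TEC in the deposited tables, with no use of their values, and numbered 2574 of 66468 loci in all, from 2495 Ensembl genes. All groups were wild-type (wt) mice of 17 weeks on control diet, labelled C57BL/6 and named C57BL/6N in the study's methods. RF mice were fasted for 16 h and then had free access to food for 6 h, FA mice were fasted for 16 h, and AL mice had food ad libitum throughout. Each group had 4 liver libraries, but the tables gave 1 value per locus and group, so that the values below carry no replicate error and no test. The unit was FPKM, fragments scaled to the length of the transcript and to the mapped fragments of the library, and the number of reads behind a value is unknown.

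As background, TEC is a holding class of the manual genome annotation. It collects stretches of the genome covered by unspliced cDNA or EST sequences that carry signs of a poly(A) tail but show no intron and no convincing open reading frame. Such a stretch may be a separate noncoding gene, a piece of unspliced precursor RNA of a coding gene, an unannotated end of a neighbour's transcript, or a priming event inside a run of A bases. The position and the strand of a TEC locus relative to the coding gene around it are therefore the first things to read.

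The tables and the reference annotation gave nearly the same picture of the members. In GENCODE M21, which uses the same genome build (GRCm38), 2532 of the 2574 loci still had the TEC biotype, 7 had another biotype, 35 were not found, and 2534 had the same start and end. TEC loci had a median annotated length of 2024 bases and a median GC content of 42.2%. They were unevenly spread over the genome, with 476 on chromosome 1, 496 on chromosome 5, 320 on chromosome 3, 308 on chromosome 6 and 306 on chromosome 7, against 14 on chromosome 11 and 6 each on chromosomes 19 and X.

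The letters at the 3′ end of a locus show how far it carries the sign that cleavage and polyadenylation use. Among 2483 TEC transcripts in the annotation, 28.3% held AATAAA or ATTAAA within the last 50 bases on their own strand, against 39.5% of 9100 lincRNA transcripts and 50.2% of 58787 protein_coding transcripts. The same letters read on the other strand of these windows were found in 7.13% of TEC transcripts. The share was 44.2% in 360 TEC transcripts that lie on the opposite strand to a coding gene, 34.4% in 989 that overlap none, and 17.9% in 1134 on the same strand as their coding gene. A match is only a match of letters, and its use was not measured here.

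The last 150 bases of 3 loci that are followed below are given here because their 3′ ends differ in these signals. Letters are from the GENCODE M21 transcripts (GRCm38), 5′ to 3′ on the strand of the locus, and capitals mark AATAAA and ATTAAA.
Gm45053, chr6:72603004-72603153, minus strand: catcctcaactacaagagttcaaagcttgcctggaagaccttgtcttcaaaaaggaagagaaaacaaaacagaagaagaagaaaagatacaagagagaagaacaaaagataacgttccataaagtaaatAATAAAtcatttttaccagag
Gm37174, chr1:121331000-121331149, plus strand: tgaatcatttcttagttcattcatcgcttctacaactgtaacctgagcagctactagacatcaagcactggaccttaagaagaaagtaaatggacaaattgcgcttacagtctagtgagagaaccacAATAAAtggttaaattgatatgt
Gm37138, chr1:15558188-15558337, plus strand: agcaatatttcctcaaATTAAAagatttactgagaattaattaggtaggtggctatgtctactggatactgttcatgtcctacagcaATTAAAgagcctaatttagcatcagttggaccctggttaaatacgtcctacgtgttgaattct

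Gm45053 carried AATAAA starting 21 bases from its end and Gm37174 carried it 23 bases from its end. Gm37138 had 2 ATTAAA matches, of which the nearer began 63 bases from the end. The following 3 loci showed neither signal in the stretch printed, which is all 129 bases of Gm37750 and the last 150 bases of Gm37503 and Gm37376. They are shown because Gm37750 and Gm37503 were 2 of the 3 loci at least 2-fold higher in FA than AL, and Gm37376 was the TEC locus with the highest value.
Gm37750, chr9:104053327-104053455, plus strand: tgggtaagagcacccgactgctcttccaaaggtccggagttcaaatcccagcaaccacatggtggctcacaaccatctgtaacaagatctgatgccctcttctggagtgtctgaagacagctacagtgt
Gm37503, chr1:74287542-74287691, minus strand: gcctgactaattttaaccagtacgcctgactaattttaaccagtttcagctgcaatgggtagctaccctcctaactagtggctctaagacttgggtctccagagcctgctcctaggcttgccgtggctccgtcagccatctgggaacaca
Gm37376, chr19:5802244-5802393, plus strand: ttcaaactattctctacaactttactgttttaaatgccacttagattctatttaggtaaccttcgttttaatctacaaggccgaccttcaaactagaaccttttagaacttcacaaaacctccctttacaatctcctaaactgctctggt

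Some of the letters of the loci printed here are not particular to 1 place. For Gm37750, 100% of its 100 stretches of 30 bases were also found in annotated transcripts of 1066 genes on other chromosomes. The share was 27.1% for Gm37376 (2292 genes), 20.6% for Gm37138 (220 genes) and 7.93% for Gm37503 (16 genes). The sources used here do not give how reads with several matches were placed, and the part of shared letters in the values of these 4 was not tested. The share was 0% for Gm45053 and for Gm37174.

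Most TEC loci were listed at 0. Of the 2574 loci, 1735 (67.4%) were listed at 0 in both FA and AL, and 839 had a value above 0. A locus was called measured when the mean of its FA and AL values was at least 0.5 FPKM, which 189 loci (7.34%) were, compared with 8.51% of 4115 lincRNA loci, 25.6% of antisense loci, 56.2% of 32395 protein_coding loci and 33.2% of all loci. A value of 0 is not proof of silence here, because Alb, which encodes serum albumin, was also listed at 0. The measured loci ran from 0.510 to 436 FPKM with a median of 1.22 FPKM. Levels were under 1 FPKM at 71 of them, between 1 and 10 at 106, and 10 or more at 12. Because this minimum uses both groups, a locus with little RNA in 1 group passed only through the other, and counts of changed loci are read beside the same counts over all loci below.

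The tissue labels were checked against marker genes. Of 8 hepatocyte markers, all but Alb stood between 308 and 2654 FPKM in FA and between 333 and 2324 FPKM in AL. The 4 lymphocyte markers reached at most 0.125 FPKM in FA and 0.201 FPKM in AL, the 3 adipocyte markers were at 0 in FA and at most 0.0306 FPKM in AL, and the 6 Kupffer cell markers stood between 0.423 and 9.59 FPKM in FA and between 0.365 and 11.6 FPKM in AL. Of the 4 pancreas markers, 3 were listed at 0 and Cela1 stood at 29.6 FPKM in FA and 60.4 FPKM in AL. The 6 endothelial markers stood between 1.39 and 10.4 FPKM in FA and between 1.64 and 13.9 FPKM in AL. The 6 stellate cell and fibroblast markers stood between 0.628 and 35.6 FPKM in FA and between 0.839 and 35.2 FPKM in AL. The 4 cholangiocyte markers reached at most 0.983 FPKM in FA and 1.30 FPKM in AL. The 5 erythroid markers stood between 15.7 and 527 FPKM in FA and between 18.7 and 704 FPKM in AL. The part of cells other than hepatocytes in the TEC values was not tested.

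The RF values came from a second table that also holds FA, and in which each locus has the values of 1 assembled transcript. FA values were within 10% of each other in both tables at 135 of the 189 measured loci, which are called matching. Elsewhere the transcript held less RNA than the locus, and at 17 measured loci it held under 1% of it. RF was set beside AL only at matching loci. The value of a measured locus was also mostly not that of the annotated TEC stretch alone. Only 7 of the 189 measured loci had an assembled span of at most 1.5 times the annotated length. Positions, lengths and sequences given here are those of the annotated stretch, whereas the values are those of the assembled locus. By name, 175 loci bore 1 gene name, 14 bore several, and 9 were named only for another gene, such as Gm37496, whose locus bears the name Serpina12.

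Measured TEC loci lay in coding genes more often than TEC loci at large. Of the 189, 146 overlapped a protein-coding gene by at least 1 base, a share of 77.2% (Wilson 95% interval 70.8 to 82.6%, which covers counting error only), compared with 1509 of 2574 (58.6%) for all members. The orientation separated them further. Of 354 TEC loci on the opposite strand to a coding gene, 124 (35.0%) were measured, whereas 22 of 1155 (1.90%) on the same strand were. Outside the coding spans used here the share was 6.20% of 371 loci within 10 kb of one and 2.88% of 694 loci farther away. With coding spans from GENCODE M21 instead, 79.4% of the measured loci overlapped a coding gene. Some loci counted here as outside, such as Gm43312 within Ppp1cb, lie inside a coding gene by those spans.

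**Figure D1:**
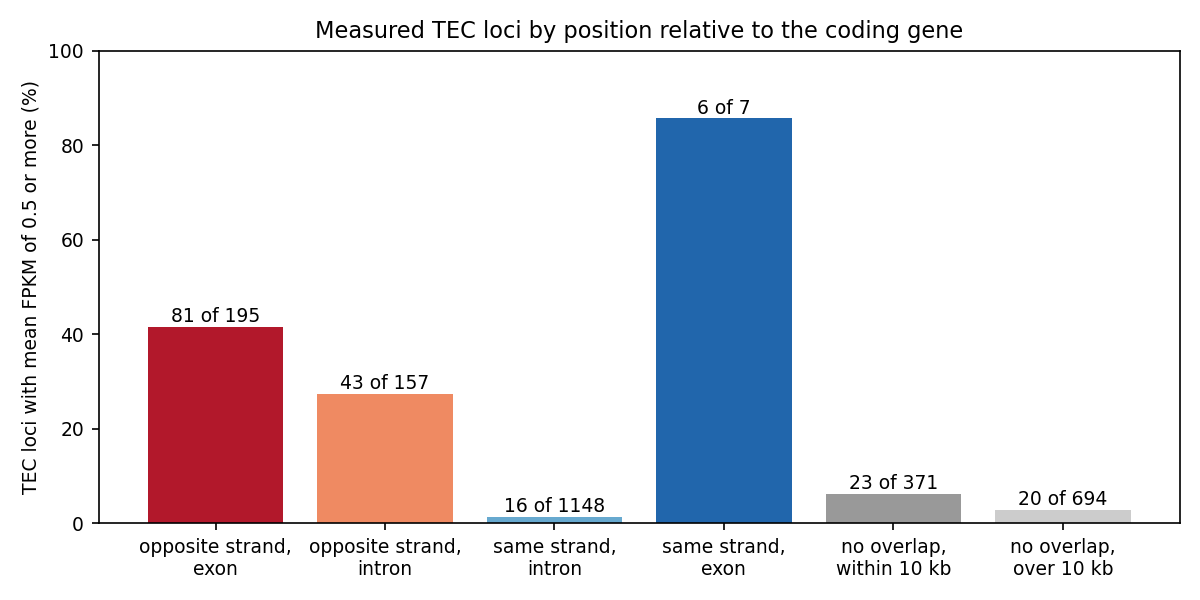
Share of TEC loci that were measured (mean FPKM of FA and AL of 0.5 or more, in %) by their position relative to the coding gene, with the number measured of all loci above each bar. Strands are those of the annotation. Loci on the opposite strand reached 41.5% over exons and 27.4% in introns, against 1.39% in introns of the same strand. The bar for exons of the same strand rests on 7 loci, and of the 6 measured only 1 was assembled on its annotated strand.

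By annotated strand, the order of the classes held in introns but not at exons. Loci on the opposite strand that touched an exon of the coding gene were measured in 81 of 195 cases (41.5%), and those within an intron in 43 of 157 (27.4%). In introns of the same strand, the place where a TEC stretch cannot be told apart from the unspliced RNA of its gene, 16 of 1148 loci (1.39%) were measured. Only 7 loci touched an exon of the same strand, and 6 of them (85.7%) were measured.

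Within the opposite strand class, the share of measured loci followed the level of the coding gene. It was 6.04% of 149 loci where the coding gene stood under 1 FPKM, 49.0% of 157 where it stood between 1 and 10 FPKM, and 79.2% of 48 where it stood at 10 FPKM or more. On the same strand the shares were 0.375% of 533 loci, 3.31% of 514 loci and 2.78% of 108 loci over these 3 levels. The median opposite-strand locus that was measured held 19.97% of the FPKM of its coding gene, with quartiles of 10.5 and 57.6%. For example, Gm42879, opposite to the mitochondrial aldehyde dehydrogenase gene Aldh2, stood at 13.1 FPKM in FA and 11.97 FPKM in AL. This was 2.65% of Aldh2 (485 FPKM in FA and 461 FPKM in AL). Only 130 of the 2214 bases of Gm42879 overlap Aldh2, and the rest lie outside it.

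The strand on which a locus was assembled was read from the numbering of the loci. Loci listed at 0 followed their annotated strand in 99.9% of 25477 cases, whereas loci above 0 did so in 63.1% of 33379. Measured TEC loci were on their annotated strand in 159 of 189 cases (84.1%). Of the 124 on the opposite strand to a coding gene 122 were, whereas 15 of the 22 on the same strand as their coding gene had been assembled on the other one. Coding genes with much RNA also had loci on both strands: Apob, the gene of the main protein of very-low-density lipoprotein, stood at 571 FPKM in FA and 481 FPKM in AL on its own strand, and at 449 FPKM in FA and 377 FPKM in AL on the opposite one. Hnf4a, a hepatocyte transcription factor, stood at 78.0 FPKM in FA and 71.8 FPKM in AL on its own strand and at 24.0 FPKM in FA and 21.02 FPKM in AL on the opposite one. The kit was strand-specific, but the strand setting of the counting was not given in the sources read for it, and the part of the coding gene's reads in the opposite-strand TEC values was not tested.

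Few measured TEC loci differed by 2-fold between FA and AL. Ratios were formed as log2((FA + 0.1)/(AL + 0.1)), which understates the change of low loci. On this scale, 3 of 189 loci were at least 2-fold higher in FA and 4 were at least 2-fold lower, against 2.55% and 3.45% of all 22056 measured loci. At 1.5-fold the counts were 15 higher and 10 lower, against 6.68% and 8.33%. The median ratio was 0.06 (quartiles −0.14 and 0.24), compared with 0.06 for lincRNA loci, 0.07 for antisense loci, −0.03 for protein_coding loci and −0.02 for all loci. In bulk tissue, more RNA per cell and more cells of a type cannot be told apart.

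**Figure D2:**
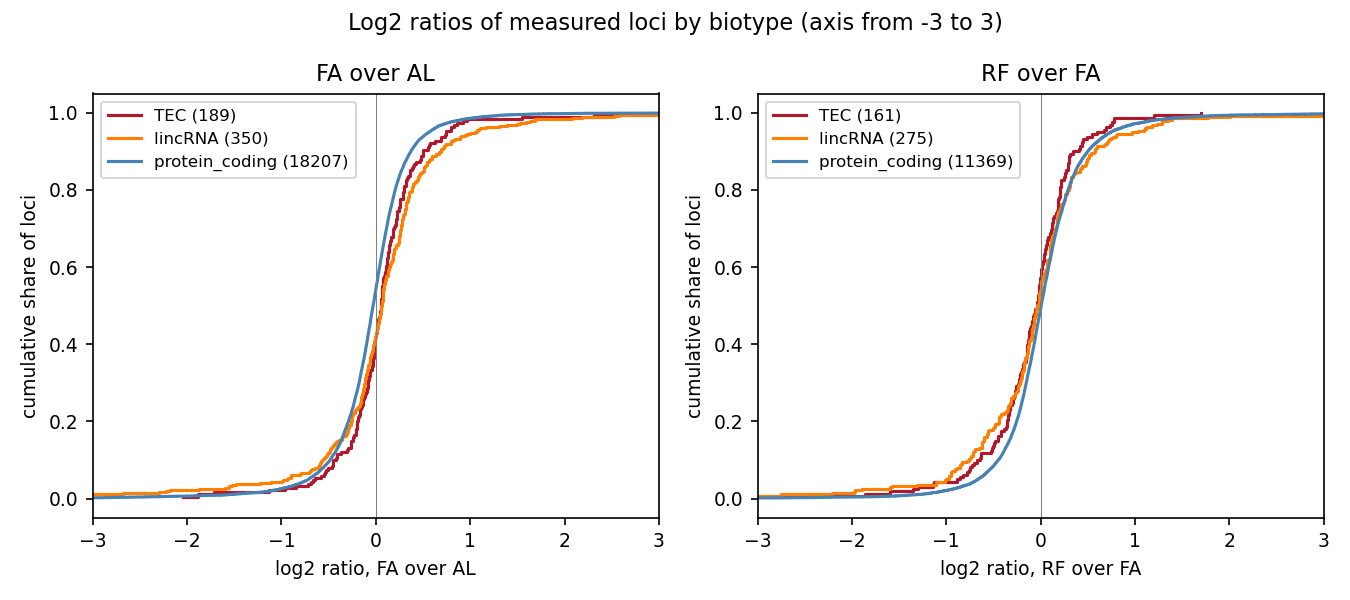
Cumulative share of measured loci (y axis) by log2 ratio (x axis, shown from -3 to 3) for TEC, lincRNA and protein_coding loci, FA over AL on the left and RF over FA on the right; the number of loci stands in each legend. For FA over AL, the TEC curve lay right of the protein_coding one around its middle (medians of 0.06 and −0.03), and in the tails it held fewer loci than lincRNA, with 3.70% past 2-fold for TEC and 9.71% for lincRNA.

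The locus with the largest defined increase was Gm45053 (chr6:72603004-72605502, minus strand), which lies on the opposite strand to Retsat and touches its exons. Retsat encodes retinol saturase, an enzyme of vitamin A metabolism. Gm45053 stood at 9.06 FPKM in FA, against 1.75 FPKM in AL, a log2 ratio of 2.31. Retsat stood at 161 FPKM in FA, against 35.4 FPKM in AL, a log2 ratio of 2.18, so that the 2 moved by nearly the same factor. In RF, Gm45053 was at 6.47 FPKM, 1.83 above AL on the log2 scale. It was the only matching TEC locus at least 2-fold higher in RF than AL.

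The other increases rested on low values or on few bases. Gm37503 (chr1:74287542-74287860, minus strand), 386 bases from Tmbim1, an inhibitor of cell death in membranes, stood at 1.02 FPKM in FA and 0.282 FPKM in AL, a log2 ratio of 1.55. Tmbim1 itself stood at 7.96 FPKM in FA and 6.40 FPKM in AL, so the locus and its neighbour differed. Gm37750 (chr9:104053327-104053455, plus strand), the locus of 129 bases printed above, stood at 2.93 FPKM in FA and was listed at 0 in AL and in RF, and no fold is given for it. Both Gm37503 and Gm37750 passed the level for measured loci through FA alone.

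Of the 4 decreases, 2 belonged to low loci that were matching. Gm37138 (chr1:15556249-15558337, plus strand), in an intron of the potassium channel gene Kcnb2, stood at 0.173 FPKM in FA and 0.909 FPKM in AL, a log2 ratio of −1.89, while Kcnb2 was listed at 0 in both. Gm42513, 231636 bases from the nearest coding gene Pfn2, stood at 0.220 FPKM in FA and 0.947 FPKM in AL, a log2 ratio of −1.71. Both passed the level for measured loci through AL alone. In RF they stood at 0.513 and 0.518 FPKM, between FA and AL.

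The other 2 decreases were of loci that were not matching. The locus of Gm37496 (chr12:104021919-104024427) bears the name Serpina12, the gene of the serpin vaspin, whose span begins 4341 bases away. It stood at 2.52 FPKM in FA and 10.7 FPKM in AL, a log2 ratio of −2.05, and was assembled on the minus strand, which is also that of Serpina12 in the annotation. A further row named Serpina12, assembled on the plus strand, stood at 5.31 FPKM in FA and 20.6 FPKM in AL, a log2 ratio of −1.93. The transcript of Gm37496 in the second table was at 0.0043 FPKM in FA, so this decrease belongs to the row and cannot be placed in the TEC stretch. Gm44103 (chr6:116260434-116264095, minus strand), opposite to Fam21, a subunit of the WASH complex of endosomes, stood at 1.95 FPKM in FA and 4.40 FPKM in AL, a log2 ratio of −1.14. Fam21 stood at 10.6 FPKM in FA and 11.5 FPKM in AL.

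A further set of loci, named after their values had been seen, lay between 1.5-fold and 2-fold on this scale. Higher in FA were Gm43909 with 2.66 FPKM in FA and 1.35 FPKM in AL, opposite to the clock repressor gene Bhlhe41, and RP24-126J17.5 with 1.61 FPKM in FA and 0.775 FPKM in AL, opposite to Arap1. With a pseudocount of 0.01 in place of 0.1, RP24-126J17.5 was past 2-fold. Gm38368, opposite to Dcaf6, which encodes a receptor of a ubiquitin ligase, had 1.71 FPKM in FA and 0.979 FPKM in AL. Gm43474, opposite to the lysosomal transporter gene Slc15a4, had 3.83 FPKM in FA and 2.34 FPKM in AL. Gm37291, 10376 bases from the pioneer factor gene Foxa1, had 1.55 FPKM in FA and 0.853 FPKM in AL, while Foxa1 had 0.177 FPKM in FA and 0.175 FPKM in AL.

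Lower in FA were Gm38316 with 5.02 FPKM in FA and 7.92 FPKM in AL, opposite to the purine nucleoside phosphorylase gene Pnp (6.23 FPKM in FA and 9.81 FPKM in AL), and Gm37946 with 2.997 FPKM in FA and 5.47 FPKM in AL, opposite to Zbtb20, a transcriptional repressor of liver genes (43.3 FPKM in FA and 47.1 FPKM in AL). AA914427, 2002 bases from Slc25a1, the mitochondrial citrate carrier, had 8.10 FPKM in FA and 15.8 FPKM in AL, and Slc25a1 had 48.1 FPKM in FA and 93.2 FPKM in AL, with log2 ratios of −0.96 and −0.95. The AA914427 transcript was at 0 in FA in the second table, so that value, too, belongs to the row rather than to the annotated stretch.

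**Figure D3:**
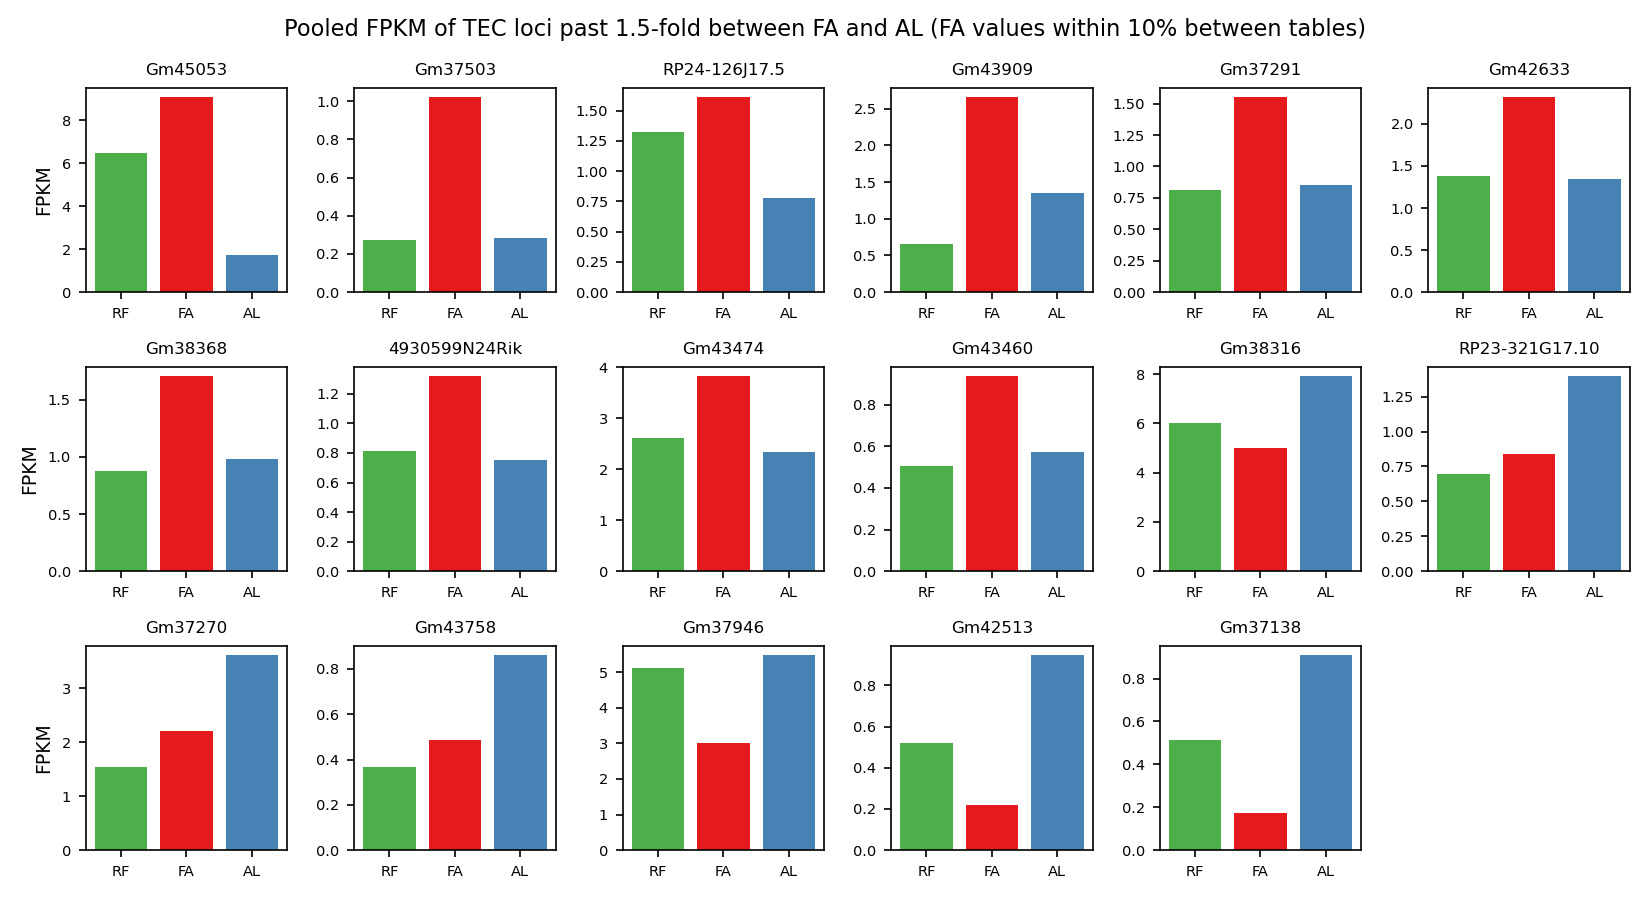
Pooled FPKM in RF, FA and AL (bars, 1 value per group) of the 17 matching TEC loci that differed by at least 1.5-fold between FA and AL, ordered by the log2 ratio of FA over AL; each panel has its own y axis from 0. Gm37750, listed at 0 in RF and AL, is left out. Gm45053 stood at 6.47 in RF, 9.06 in FA and 1.75 in AL, and Gm37946 at 5.12 in RF, 2.997 in FA and 5.47 in AL.

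Most opposite-strand TEC loci differed little between FA and AL, as did the coding genes they overlap. For the 121 such loci whose coding gene had a mean of at least 0.5 FPKM, the log2 ratios of the pair differed by a median of 0.17, and 113 pairs (93.4%) lay within 1.5-fold of each other. Of the same 121, 106 TEC loci (87.6%) and 110 coding genes (90.9%) were within 1.5-fold of no change, with median sizes of the log2 ratio of 0.18 for the TEC loci and 0.19 for the coding genes. In 9 pairs the row of the coding gene had been assembled on the strand opposite to its annotation. The sign was the same in 78 of the 121. Pearson's r over these pairs was 0.69 and Spearman's rank correlation 0.57, as a description: both values of a pair come from the same pooled libraries and the same stretch of genome. Over the 87 pairs whose TEC value was matching, Pearson's r was 0.71.

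**Figure D4:**
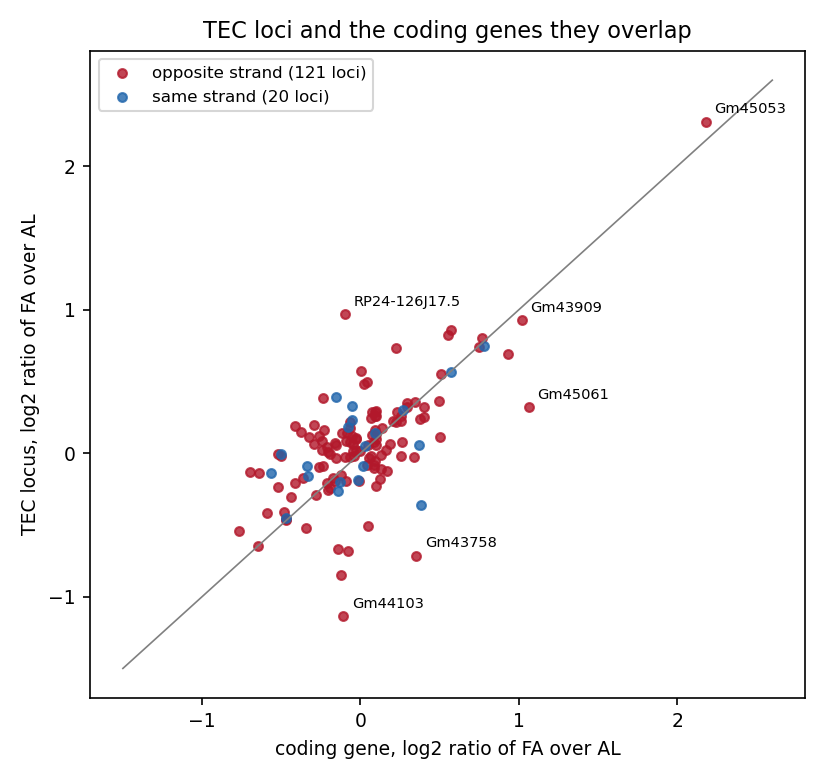
Log2 ratio of FA over AL of measured TEC loci (y axis) against that of the coding gene they overlap (x axis), for pairs on opposite strands (red) and on the same strand (blue); the line marks equal ratios. Gm45053 and Retsat lay at 2.31 and 2.18, and Gm44103 lay 1.03 below the line; Gm37750, listed at 0 in AL, is left out.

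In 8 pairs the ratio of the TEC locus differed by more than 1.5-fold from that of the row taken for its gene. RP24-126J17.5 had a log2 ratio of 0.97 where its Arap1 locus had −0.10. Gm43758, opposite to Hps4, a gene of lysosome-related organelles, had −0.71 where Hps4 had 0.35, and Gm44103 had −1.14 where Fam21 had −0.11. Gm45061, opposite to Fam13a, had 0.32 where the Fam13a row on the gene's own strand had 1.07. Fam13a rows on the other strand, that of Gm45061, had 0.35, 0.39 and 0.66, so this difference depends on the row taken. The others were Gm37946, Gm37270, 4930517G19Rik and Gm38162, with differences between 0.60 and 0.73 in size. With 1 value per group, none of these can be set against the spread of the animals.

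In 19 of the 121 pairs the TEC locus stood above its coding gene. The highest of these were Gm45236, with 44.8 FPKM in FA and 38.6 FPKM in AL opposite to the glycerophosphodiesterase gene Gde1 (15.8 FPKM in FA and 13.5 FPKM in AL), and Gm37676, with 39.0 FPKM in FA and 31.2 FPKM in AL opposite to Nucks1 (7.62 FPKM in FA and 5.75 FPKM in AL). Both rows held more than the transcript of the second table, where FA was 3.57 FPKM for Gm45236 and 7.62 FPKM for Gm37676. Gm43435, at 10.2 FPKM in FA and 10.4 FPKM in AL opposite to Tmem167b (0.962 FPKM in FA and 1.03 FPKM in AL), had a transcript under 1% of the value of its locus in FA. Gm43909 also stood above Bhlhe41, and it was matching.

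Several coding genes carried more than 1 measured TEC locus. The 146 overlapping loci fell in 133 coding genes, of which 8 held at least 2. Ube3a, a ubiquitin ligase gene that is imprinted in neurons and has an antisense transcript there, had 4 on its opposite strand: Gm44559, Gm44562, 9330162G02Rik and Gm44560. They stood between 0.882 and 4.31 FPKM in FA and between 0.843 and 3.58 FPKM in AL, with log2 ratios between −0.23 and 0.26, where Ube3a stood at 21.7 FPKM in FA and 20.2 FPKM in AL. At Hnrnpf, a splicing factor gene, 2 loci of 4933440N22Rik and 1 of Gm43863 stood between 1.07 and 6.59 FPKM in FA and between 0.986 and 6.48 FPKM in AL. None of these 7 loci was past 1.5-fold. They were named after their values had been seen, as was Particl, an RNA antisense to the promoter of Mat2a known from human cells, at 0.557 FPKM in FA and 0.464 FPKM in AL opposite to this gene, whose enzyme makes the methyl donor S-adenosylmethionine.

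The highest TEC locus of all lay on the strand opposite to a noncoding gene. Gm37376 (chr19:5801941-5802393, plus strand) lies wholly within Malat1, an abundant nuclear lincRNA annotated on the minus strand at 5795690 to 5802672 of chromosome 19. Gm37376 stood at 445 FPKM in FA and 426 FPKM in AL, and at 428 FPKM in RF. The row of Malat1 stood at 2.61 FPKM in FA and 3.13 FPKM in AL. The 3 states of Gm37376 were thus within a log2 ratio of 0.06 of each other. The strand setting of the counting is unknown, and the part of Malat1 reads in the value of Gm37376 was not tested.

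Among the other high loci, few held a TEC transcript of that level. RP23-144H18.4, in a locus that also names Ces3b, stood at 98.1 FPKM in FA and 141 FPKM in AL, opposite to Ces3a, both carboxylesterases of the liver. RP23-296G24.1, in a locus that also names Acsl1, stood at 49.9 FPKM in FA and 27.4 FPKM in AL, but its transcript stood at 0.0016 FPKM in FA. Acsl1, which activates long-chain fatty acids, stood at 264 FPKM in FA and 178 FPKM in AL. Gm44250, named Pon3, stood at 21.3 FPKM in FA and 19.7 FPKM in AL, and Gm43312, named Ppp1cb, at 12.3 FPKM in FA and 11.9 FPKM in AL, with transcripts under 1% of these values in FA. RP23-264J18.6, opposite to the mitochondrial aspartate aminotransferase gene Got2, was matching, at 9.48 FPKM in RF, 8.60 FPKM in FA and 8.27 FPKM in AL. Gm42796 stood at 7.61 FPKM in FA and 8.82 FPKM in AL, and Gm43379, in a locus that also names 4930539J05Rik, at 8.04 FPKM in FA and 7.36 FPKM in AL, with a transcript at 0.0061 FPKM in FA.

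Between RF and FA, few TEC loci differed by 2-fold, and more of them were lower in RF than higher. The RF and FA table had 161 TEC loci with a mean of at least 0.5 FPKM, of which 2 were at least 2-fold higher in RF and 7 at least 2-fold lower, against 3.86% and 3.3% of all 14772 loci. Both directions together, 5.59% of TEC loci were past 2-fold, against 7.16% of all loci. At 1.5-fold the counts were 9 higher and 19 lower, against 9.11% and 8.52%. A tilt to lower values in RF was not particular to TEC. At 1.5-fold, 26 lincRNA loci were higher and 44 lower, as were 35 and 50 antisense loci, whereas 888 protein_coding loci were higher and 733 lower. The median ratio of RF over FA was −0.04 for TEC and for lincRNA loci, and −0.07 for antisense loci. It was 0.0063 for protein_coding loci and −0.0013 for all loci. FA enters both this comparison and the one before it, so that the values of a locus in the 2 comparisons are not independent of each other.

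The 2 loci higher in RF were not matching. Gm44103 had a transcript at 4.58 FPKM in RF and 1.35 FPKM in FA, a log2 ratio of 1.70. The transcript of 9430064I24Rik, opposite to the histone methyltransferase gene Setd1a, stood at 3.05 FPKM in RF and 1.27 FPKM in FA, a log2 ratio of 1.20.

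Of the 7 loci lower in RF, 5 lay on the opposite strand to a coding gene. Gm43909 (chr6:145863297-145865172, plus strand) stood at 0.658 FPKM in RF, 2.66 FPKM in FA and 1.35 FPKM in AL, a log2 ratio of RF over FA of −1.86. Its gene Bhlhe41 stood at 1.15 FPKM in FA and 0.518 FPKM in AL, a log2 ratio of 1.02. Gm37174 (chr1:121328092-121331149, plus strand) lies opposite to an intron of Insig2, whose protein holds the sterol-sensing complex of SREBP in the endoplasmic reticulum. It stood at 1.89 FPKM in RF, 4.97 FPKM in FA and 4.15 FPKM in AL, with log2 ratios of −1.35 for RF over FA and −1.10 for RF over AL. Insig2 stood at 62.5 FPKM in FA and 47.3 FPKM in AL.

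Gm37153 (chr5:8997159-8997389, plus strand) touches the exons of Crot, a carnitine acyltransferase of peroxisomes, from the opposite strand. Its transcript stood at 4.90 FPKM in RF and 12.2 FPKM in FA, a log2 ratio of −1.30, and that of Crot at 35.0 FPKM in RF and 80.6 FPKM in FA, a log2 ratio of −1.20. Its locus stood at 17.8 FPKM in FA and 10.2 FPKM in AL, and Crot at 143 FPKM in FA and 84.1 FPKM in AL. The 2 members of this pair thus differed little in either comparison.

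Gm45061 (chr6:58973197-58975291, plus strand) was 1 of several rows on the strand opposite to Fam13a. It stood at 0.460 FPKM in RF, 1.13 FPKM in FA and 0.883 FPKM in AL. The 3 rows named Fam13a on that strand, all matching, stood between 0.370 and 0.705 FPKM in RF, between 1.12 and 1.63 FPKM in FA and between 0.673 and 1.22 FPKM in AL. All 4 rows were lower in RF than FA, with log2 ratios between −1.003 and −1.38.

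The remaining 3 lower loci were Gm37503, Gm37750 and Gm10513. In RF they stood under 0.5 FPKM, as did Gm45061, so these loci passed the minimum of this comparison through FA alone. Gm37503 stood at 0.271 FPKM in RF, against 1.02 FPKM in FA, a log2 ratio of −1.59, and Gm37750 was listed at 0 in RF, as in AL. Gm10513 (chr17:11725878-11732345, minus strand), opposite to an intron of Park2, the gene of the ubiquitin ligase parkin, stood at 0.294 FPKM in RF, 0.766 FPKM in FA and 0.481 FPKM in AL.

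At matching loci, the ratios of RF over AL centred on 0. Over the 136 TEC loci with a mean of at least 0.5 FPKM across the 3 groups, the median log2 ratio of RF over AL was −0.0001 (quartiles −0.16 and 0.17), compared with −0.02 over all 12032 such loci. It lay within 1.5-fold at 122 of them. The ratio was at least 2-fold higher at 1 locus and at least 2-fold lower at 3, against 1.91% and 2.54% of all loci. At 1.5-fold it was higher at 2 and lower at 12, against 4.99% and 6.57%. The higher ones were Gm45053 and RP24-126J17.5 (1.32 FPKM in RF, 1.61 FPKM in FA and 0.775 FPKM in AL). The 3 lowest were Gm37270, opposite to Nipal3, with 1.53 FPKM in RF, 2.21 FPKM in FA and 3.61 FPKM in AL, together with Gm37174 and Gm43758 (0.367 FPKM in RF, 0.485 FPKM in FA and 0.860 FPKM in AL).

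Same-strand TEC loci could be set beside their gene in 21 cases, of which 19 lay within 1.5-fold of the gene's ratio. Apart from Gm37750, the exception was Gm26814 in Ppp1r9a, with 0.562 FPKM in FA and 0.752 FPKM in AL where Ppp1r9a had 11.2 FPKM in FA and 8.60 FPKM in AL. Of all 189 measured TEC loci, 164 lay within 1.5-fold of no change between FA and AL. The count of 19 of 21 therefore does not by itself show that a TEC locus followed its gene. Gm42633 lies in an intron of Scarb1, the receptor for high-density lipoprotein, and is annotated on the same strand, but its locus was assembled on the other strand. It stood at 1.39 FPKM in RF, 2.32 FPKM in FA and 1.34 FPKM in AL. A row named Scarb1 on that other strand stood at 2.94 FPKM in RF, 5.21 FPKM in FA and 3.31 FPKM in AL, and Scarb1 on its own strand at 30.8 FPKM in FA and 17.9 FPKM in AL. Gm42648, in N4bp2, was also assembled on the strand other than that of its gene, with 1.34 FPKM in RF, 2.32 FPKM in FA and 1.54 FPKM in AL. N4bp2 stood at 7.31 FPKM in FA and 4.89 FPKM in AL on its own strand.

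Of the metabolic, clock and chaperone genes on 5 lists, 127 were found by symbol among the protein_coding genes of the tables, and 9 of these (7.09%) had a TEC locus overlapping or nearby, against 1112 of all 21217 protein_coding genes (5.24%). None of 29 genes of fatty acid oxidation and ketogenesis and none of 17 genes of endoplasmic reticulum chaperones had a TEC locus overlapping or, where none overlapped, within 10 kb. Of 37 genes of fatty acid and cholesterol synthesis, 5 had 6 TEC loci, of which Gm37174 at Insig2 was the measured one. Of 29 genes of the glucose and insulin response, 2 had 5 TEC loci, of which none was measured. Of 19 clock genes, 2 had 3 TEC loci, of which Gm43909 at Bhlhe41 was measured. Neither Gm37174 nor Gm43909 was past 2-fold between FA and AL, but both were at least 2-fold lower in RF than FA.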

How the data were processed

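Total RNA of 12 livers (4 per group) was depleted of ribosomal RNA, made into strand-specific libraries and sequenced in pairs. Per the methods and the submitters' processing notes, the authors removed reads of ribosomal RNA with Bowtie2 2.2.9, aligned the rest with STAR 2.6.0c to GRCm38, assembled transcripts with Cufflinks 2.2.1 and merged them with the Ensembl annotation, and let Cuffdiff give 1 pooled FPKM per group. The 2 deposited tables (FA with AL, RF with FA) hold 66468 loci each. Their columns of the authors' ratios, p-values and q-values hold the authors' own comparisons and were not used. The depth of the libraries is unknown.

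Ratios are log2((x + 0.1)/(y + 0.1)) over loci with a mean of at least 0.5 FPKM in the 2 groups, and a locus was counted as changed past 2-fold, or past 1.5-fold where stated. With 1 value per group no test was made. Coding genes were assigned from the start and end of the tables, as the gene with the longest overlap or else the nearest, with the row of the highest mean FPKM, and exons from GENCODE M21. Locus strands were read from the locus numbering. The members, the gene lists and the rule for named loci (those past 2-fold, the 15 highest, and those whose coding gene was on a list or past 2-fold) were chosen with earlier results of these data known. Python 3.11.15, pandas 2.3.3 and scipy 1.17.1 were used, and the code was tested on simulated data. Genome sequence beyond the ends of the loci was not analysed here. Some items are not reported here.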

Additional observations from a re-analysis of the deposited data

How the results depend on the processing

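The pooled values carry no replicate error, and differences between settings are differences of counting. No paired analysis was possible because the tables hold 1 pooled value per group. Of the alternatives, 53 kept their value within the limit set for it (1.5 times a count, 0.1 for a median on the log2 scale) and 25 did not. With a mean of at least 0.25 FPKM, FA over AL gave 5 loci higher and 8 lower past 2-fold, and RF over FA gave 5 higher. With a mean of at least 1 FPKM, 2 were lower in FA and 4 lower in RF. With no filter, 9 were higher and 14 lower in FA, and 12 higher and 15 lower in RF. Among loci with status OK in the tables, 9 were lower in FA and 5 higher in RF. A pseudocount of 0.5 left 4 lower in RF. At 1.5-fold the counts were 15 higher and 10 lower in FA, 9 higher and 19 lower in RF, and 8 TEC loci had an overlapping coding gene past 1.5-fold the same way, against 1 (Gm45053 with Retsat) past 2-fold. Matching loci alone gave 2 lower in FA, an alternative chosen after seeing the data, and 0 higher in RF. Assembled spans within 1.5 times the annotated length left 7 loci for FA over AL and 8 for RF over FA, with 0 past 2-fold in each direction and a median of −0.24 for RF over FA. The share of loci that overlap a coding gene was 58.6% over all TEC loci. The filters and the choice of members change which loci enter, while the 1.5-fold threshold and the pseudocount of 0.5 act on the same loci. Beyond that the cause was not tested.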
